A study of Mus musculus with 8 samples.

Results

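Laminins are the cross-shaped proteins at the core of basement membranes, and the RNA of their chains was followed here in mouse aortic smooth muscle cells (MASMCs) from WT and *Hint1*-/- mice. The chains were found by gene symbol: *Lama1*, *Lama2*, *Lama3*, *Lama4* and *Lama5* for the α chains, *Lamb1*, *Lamb2* and *Lamb3* for the β chains, and *Lamc1* for γ1, which makes 9 of the 18533 gene symbols in the files. *Lamc3*, the gene of the γ3 chain, was added because some trimers need it, so 10 chain genes are described. MASMCs are primary cells grown from the aorta. They came from WT mice (n = 4) and from *Hint1*-/- mice (n = 4), and all 8 samples had received the growth factor PDGF-BB at 20 ng/mL for 24 hours. According to the study's methods the mice were males a few weeks old, the aorta was stripped of its outer layer and endothelium, and the knockout was of the whole animal rather than of smooth muscle alone. No untreated cells were among the samples, so every level below is a level under PDGF-BB. The sources used here do not say whether replicates came from separate mice, and the p-values then measure the spread between these samples, which may be technical.

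A laminin is built from 1 α, 1 β and 1 γ chain wound into a coiled coil, and it is named after the chains it holds, so that laminin-411 holds α4, β1 and γ1. The β and γ chains join first inside the cell, and an α chain must join them before the trimer is secreted. Outside the cell, the tips of the short arms link laminins into a sheet, which nidogen and perlecan tie to type IV collagen, and the globular end of the α chain is held by integrins, dystroglycan and other receptors. Vessel walls are known for α4 and α5 laminins made by endothelium and smooth muscle, α2 laminin for muscle and nerve, and α3 laminins for the anchoring of epithelia.

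The ends of the β coding sequences are shown because a feature that a trimer depends on lies there. A cysteine near the end of each β chain bonds to the partner γ chain, and its codon TGC is in capitals in the last 10 codons before the stop codon, read from mm10 with the GENCODE M21 annotation.
Lamb1: gagaaagttgcggtttacagcaccTGCtta
Lamb2: ttgcaggtccagatctacaacaccTGCcag
Lamb3: gggcgagtgctctactatgccaccTGCaag
These lie in coding exons at chr12:31329461-31329490, chr9:108490388-108490417 and chr1:193343478-193343507, all on the plus strand, and the capital codon is the second from the end in all 3 genes. For coding length, the longest annotated coding sequence of each gene was taken, and shorter forms were not compared. On that measure *Lama4* stood apart among the α genes, with 1816 codons. *Lama1* had 3083, *Lama2* 3118, *Lama3* 3330 and *Lama5* 3718. The α4 chain is known to lack most of the short arm with which other laminins link into a sheet.

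The files held an estimated read count for each gene symbol and sample, and the counts summed to between 20778077 and 20888041 per sample. *Hint1*, the targeted gene, had counts of 2272 to 2364 in WT and of 713 to 778 in *Hint1*-/- MASMCs, a fall to 32.1% of the WT level and not to 0. Chi-square divided by the number of genes, near 1 for a pair of libraries set apart by counting noise alone, lay between 2.07 and 5.25 within a genotype and between 11.3 and 16.4 between genotypes, so no pair of libraries differed by counting noise alone. Marker RNA of other cell types was present, and the macrophage, Schwann cell and fibroblast sums given below differed with genotype. The summed level of 10 smooth muscle markers was 1375 to 1495 CPM (counts scaled to library size) in WT and 1130 to 1220 CPM in *Hint1*-/- MASMCs. *Acta2* and *Tagln* were abundant, but *Myocd*, the coactivator that defines mature smooth muscle, had 7 to 14 counts. For 7 macrophage markers the sums were 2262 to 2620 CPM and 1848 to 1967 CPM, and for 10 Schwann cell markers 68.2 to 74.2 CPM and 27.6 to 30.5 CPM. For 8 fibroblast markers they were 2334 to 2394 CPM and 3174 to 3369 CPM, of which *Dcn* alone went from a mean of 1112 to 1975 CPM, and the list's median log2 fold change was 0.04. In such bulk samples, which cells held the marker RNA is not known, and fewer cells of a type and less RNA per cell cannot be told apart.

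Which laminin chains did MASMCs carry, and at what level? Levels of different genes were set side by side per length, as counts per kilobase of exon scaled to the same total in every sample (TPM). In WT cells *Lamc1*, the γ chain of most laminins, was highest at 113 ± 5.54 TPM (SD, n = 4), and 8.80% of the 17733 genes with a length lay above it. *Lamb1* and *Lamb2*, the β chains that pair with it, followed at 102 ± 3.35 and 100 ± 4.27 TPM, and their samples overlapped. *Lama4* came next at 64.6 ± 0.530 TPM. *Lama5*, whose long chain carries full short and long arms, stood at 23.0 ± 1.05 TPM, and *Lama2*, the α chain of muscle laminin, at 10.9 ± 0.585 TPM. The remaining 4 chains were scarce. *Lama3*, *Lamb3* and *Lamc3* had 0.576 ± 0.190, 0.538 ± 0.0988 and 0.512 ± 0.0565 TPM with overlapping samples, and *Lama1*, the α chain of embryonic basement membrane, had 0.290 ± 0.0390 TPM. From *Lama4* down to *Lama2*, no WT sample of one gene overlapped a sample of its neighbour in this order.

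**Figure D1:**
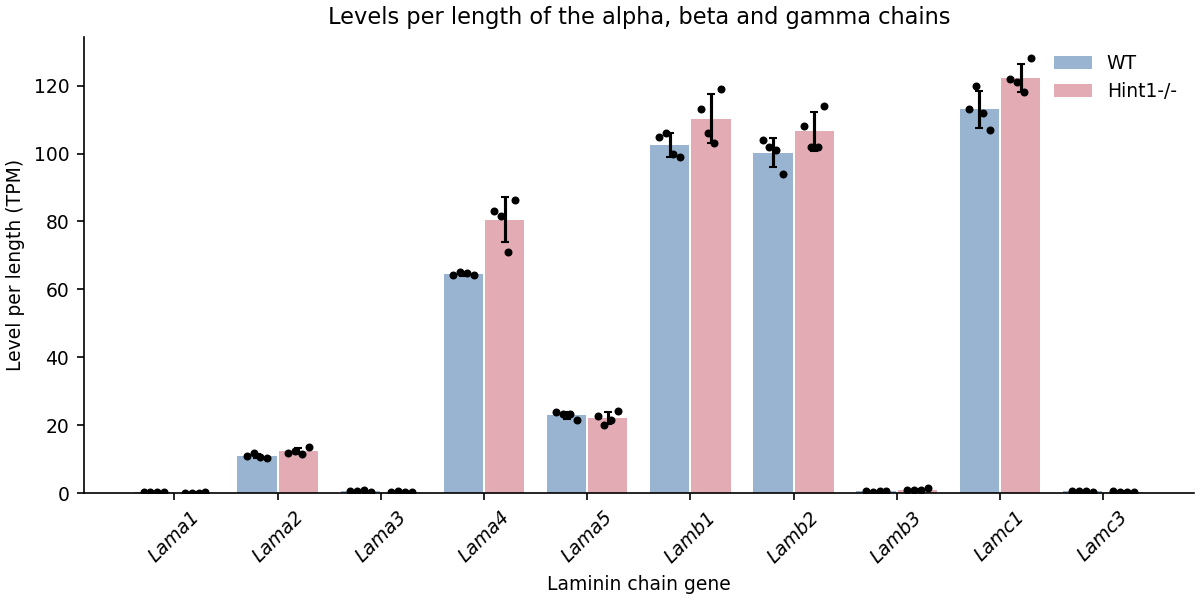
Level per length of the 10 laminin chain genes in TPM, with bars at the mean of 4 samples per genotype, error bars for the SD and points for single samples. *Lamc1*, *Lamb1* and *Lamb2* stand highest and *Lama4* leads the α chains, at 64.6 TPM in WT and 80.5 TPM in *Hint1*-/- MASMCs.

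The α chains fell into a clear order. *Lama4* made up 64.2%, 64.5%, 64.9% and 66.4% of the summed α chain level in the WT samples, *Lama5* 22.3% to 23.9% and *Lama2* 10.7% to 11.6%, while *Lama1* and *Lama3* were each below 1% in every sample. The β level was shared almost equally between *Lamb1*, at a mean of 50.4% in WT, and *Lamb2*, at 49.3%. *Lamc1* stood far above *Lamc3*. The order of *Lamb1* and *Lamb2* rested on the gene length chosen: their log2 ratio (*Lamb2* to *Lamb1*) was −0.03 in WT with protein-coding transcripts of the basic annotation, −0.06 with coding length and 0.62 with every annotated transcript, retained introns included. The same change took the share of *Lama4* in the α chains of WT from 65.0% to 66.7% and 51.5%, and *Lama4* kept the first place among the α chains under each.

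Which trimers did these levels allow? For each of 13 trimers that hold γ1 or γ3, the lowest of its 3 chains per length was taken in each sample as the limiting chain. RNA levels measure neither protein nor assembly, so this gives a limit in units of RNA only. For the 10 trimers that pair an α chain with β1 or β2 and with γ1, the α chain was limiting in all 8 samples. Summed α chains in WT stood at 99.4 ± 1.93 TPM, below *Lamc1* and *Lamc3* together at 114 ± 5.59 TPM and β chains at 203 ± 7.26 TPM (SD, n = 4). The ratio of β to α sums was 2.04 ± 0.0405 and that of γ1 and γ3 to α sums 1.14 ± 0.0370, so β and γ RNA exceeded α RNA per length.

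Laminin-411 and laminin-421, which share α4 and draw on the same *Lama4* RNA, had the highest allowance, at 64.6 TPM in WT. Laminin-511 and laminin-521 followed at 23.0 TPM and laminin-211 and laminin-221 at 10.9 TPM. These 6 trimers differ in whether β1 or β2 is used, and the near-equal levels of *Lamb1* and *Lamb2* put no order on the members of each pair. The α1 laminins, laminin-111 and laminin-121, were held to 0.290 TPM in WT, and laminin-311 and laminin-321, which join α3 to γ1, to 0.576 TPM. Trimers with γ3 were laminin-213, laminin-423 and laminin-523, and *Lamc3* limited each of them, at 0.512 TPM. The limiting chain of all 13 trimers was the same in every sample under each of the gene lengths tried. None of the 13 holds β3. Beside the epithelial chains *Lama3* and *Lamb3*, 8 of the 9 epithelial markers, *Epcam*, *Krt5*, *Krt14* and *Cdh1* among them, had 0 to 2 counts in every sample, while *Krt19* had 85 to 106 counts in WT and 134 to 196 in *Hint1*-/- MASMCs.

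Next, the genotypes were compared by a two-sided quasi-likelihood test in edgeR over 13535 genes. Of the 10 chains, *Lamb3*, *Lama4*, *Lama2* and *Lamc1* had an adjusted p under 0.05, all higher in *Hint1*-/- MASMCs, and no chain was lower at that threshold. Among all tested genes 21.5% passed it, 11.2% as higher and 10.2% as lower. *Lamb3* alone also passed the fold change of 1.5 that the study used, as 2.83% of all tested genes did. In *Lamb3*, *Lama4* and *Lama2* the genotypes did not overlap in CPM, which held for 23.0% of all tested genes, so this count of 3 in 10 lay near the background. The median log2 fold change was 0.09 over the 10 chains and 0.10 over the 9 chains without *Lamc3*, against 0.000 over all tested genes.

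**Figure D2:**
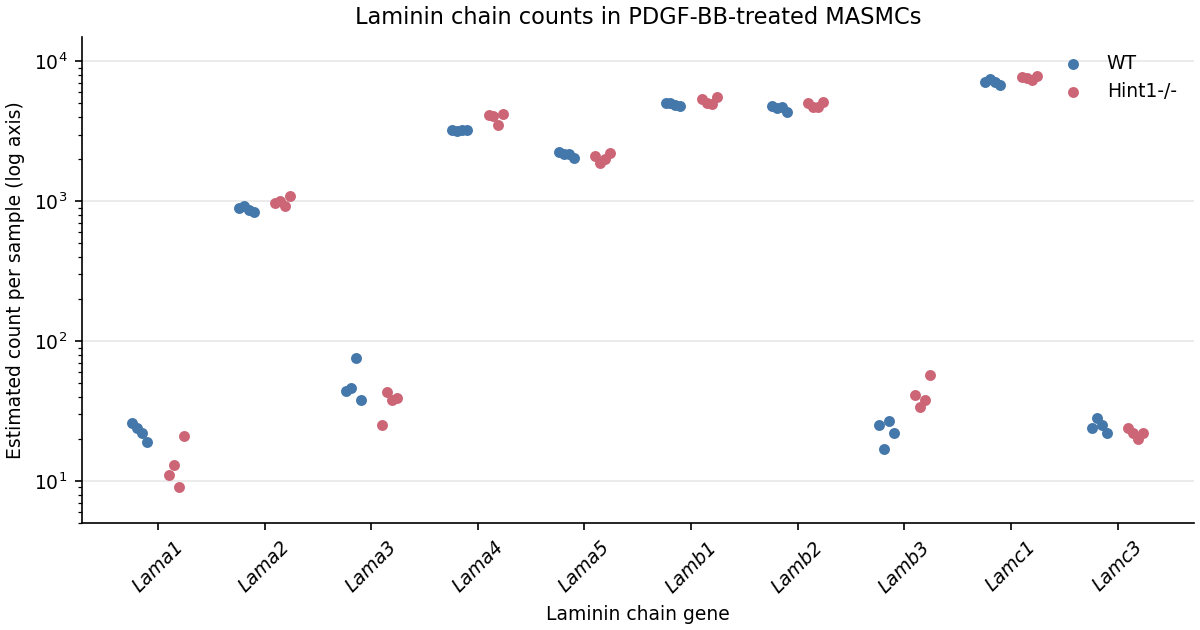
Estimated counts of the 10 laminin chain genes on a log axis, with 1 point per sample and the genotypes side by side. *Lama4* lies at 3198 to 3249 counts in WT and at 3514 to 4189 in *Hint1*-/- MASMCs, and *Lamb3* at 17 to 27 and at 34 to 57.

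*Lama4* had the smallest adjusted p of the chains. Its counts were 3207, 3198, 3249 and 3208 in WT replicates 1 to 4 and 4134, 4042, 3514 and 4189 in *Hint1*-/- replicates 1 to 4. The WT samples were close together, and the lowest knockout sample, replicate 3, still stood above them. The mean went from 154 ± 1.21 CPM to 191 ± 15.2 CPM (SD, n = 4), which is 1.24-fold (log2 fold change 0.32, SE 0.0450, edgeR adjusted p = 4.3e-05). The exact two-sided permutation test gave p = 0.0286, unadjusted, the smallest that 4 samples against 4 allow. It kept an adjusted p under 0.05 under all 16 alternative settings of the analysis, with adjusted p from 3.2e-09 to 0.000366 across them.

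*Lama2*, the α chain lost in a congenital muscular dystrophy, had 895, 930, 866 and 838 counts in WT replicates and 964, 997, 924 and 1082 in *Hint1*-/- replicates. The genotypes stayed apart in CPM, with 42.2 ± 1.81 and 47.8 ± 3.26 CPM (SD, n = 4), but by a margin so thin that they overlapped in counts and in TPM. The rise was 1.13-fold (log2 fold change 0.18, SE 0.0484, edgeR adjusted p = 0.0116), and without *Hint1*-/- replicate 4, the highest, the adjusted p was 0.0520. *Lama5* counts overlapped, at 2253, 2161, 2193 and 2026 in WT and 2121, 1870, 1999 and 2218 in *Hint1*-/- MASMCs (log2 fold change −0.06, SE 0.0467, edgeR adjusted p = 0.392).

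The scarce α chains gave fewer counts and wider errors. *Lama1* had 26, 24, 22 and 19 counts in WT and 11, 13, 9 and 21 in *Hint1*-/- MASMCs, so 3 knockout samples lay below every WT sample and replicate 4 lay among them. Its log2 fold change was −0.74 (SE 0.262) with an edgeR adjusted p of 0.0530. It did not pass in 11 of 15 alternatives, with an adjusted p of up to 0.157 (DESeq2). The p became 0.0135 without *Hint1*-/- replicate 4, 0.0492 with upper-quartile normalization, 0.0365 with limma-voom and 0.0379 once each library's trend over gene length was removed. *Lama3*, which encodes the epithelial α3 chain, had 44, 46, 76 and 38 counts in WT and 25, 43, 38 and 39 in *Hint1*-/- MASMCs (log2 fold change −0.48, SE 0.218, edgeR adjusted p = 0.132). Its genotypes overlapped, and WT replicate 3 stood above the rest.

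Of the β chains, the abundant pair did not pass the adjusted p. *Lamb1* had 5050, 5010, 4842 and 4779 counts in WT and 5408, 5064, 4928 and 5571 in *Hint1*-/- MASMCs (log2 fold change 0.10, SE 0.0389, edgeR adjusted p = 0.0687). It passed the threshold, at an adjusted p of 0.0216, only without *Hint1*-/- replicate 3. *Lamb2*, the β chain of laminins at the neuromuscular junction and the kidney filter, had 4821, 4671, 4692 and 4376 counts in WT and 5002, 4687, 4683 and 5131 in *Hint1*-/- MASMCs (log2 fold change 0.08, SE 0.0386, edgeR adjusted p = 0.144). Both genes overlapped between genotypes. The log2 ratio of *Lamb2* to *Lamb1* was −0.01, −0.05, 0.01 and −0.07 in WT and −0.06, −0.06, −0.02 and −0.06 in *Hint1*-/- MASMCs, so the balance of β1 and β2 overlapped too.

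*Lamb3* rose most. Its counts were 25, 17, 27 and 22 in WT replicates 1 to 4 and 41, 34, 38 and 57 in *Hint1*-/- replicates 1 to 4, and every knockout sample lay above every WT sample. The level went from 1.09 ± 0.210 CPM to 2.05 ± 0.484 CPM (SD, n = 4), a 1.88-fold rise (log2 fold change 0.91, SE 0.210, edgeR adjusted p = 0.00408). It passed both thresholds in all 16 alternative settings, where the log2 fold change ranged from 0.74 to 1.00, with the lowest value without *Hint1*-/- replicate 4. The RNA remained scarce, at 1.02 ± 0.254 TPM in *Hint1*-/- MASMCs, against 110 TPM for *Lamb1*. *Krt19*, the 1 gene of 9 epithelial markers that could be tested, was also higher (log2 fold change 0.84, edgeR adjusted p = 4.2e-05).

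A promoter entry of *Lamb3*, the laminin chain past both thresholds, is printed below, with no capitals because no searched motif matched. It is the 250 bases before the start used by that entry, the first part of the 300-base RefSeq entry at chr1:193301744-193302043 of GRCm38.p6, plus strand. GENCODE M21 places the start of the gene upstream, at chr1:193207699, and the bases before that start were not searched.
Lamb3 promoter: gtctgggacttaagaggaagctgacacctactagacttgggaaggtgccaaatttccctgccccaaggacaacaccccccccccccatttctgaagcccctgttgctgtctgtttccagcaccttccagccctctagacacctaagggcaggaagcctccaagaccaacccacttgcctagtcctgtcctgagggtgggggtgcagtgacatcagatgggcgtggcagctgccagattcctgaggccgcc
The letters GCCNNNGGC (AP-2), TGANTCA (AP-1) and GGGCGG (GC box) were sought on both strands, and none occurred in this entry or in the second *Lamb3* entry, whose start lies downstream. Of 32851 promoter entries of the same length, 16.6%, 7.81% and 35.7% held them. Promoter entries were at hand for 5 of the 10 laminin genes, and outside *Lamb3* only GC box letters were found, in *Lama2*, *Lama5* and *Lamb1*.

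Over the 8 samples, the genes whose log2 CPM followed *Lamb3* most closely among 13534 others were *H1f3*, a linker histone, with Pearson's r of 0.985, *Traf2*, an adaptor of TNF receptors, with 0.978, and *Ptpn23*, a phosphatase-like endosomal protein, with 0.978. These samples share the 2 genotypes, and likeness over so few points is a description. *H1f3* had 8 to 16 counts, and its own log2 fold change was 0.47 (edgeR adjusted p = 0.283).

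Of the γ chains, *Lamc1* passed the adjusted p and *Lamc3* did not. *Lamc1* had 7147, 7436, 7064 and 6738 counts in WT and 7677, 7549, 7367 and 7824 in *Hint1*-/- MASMCs, and 3 knockout samples stood above every WT sample. Means of 339 ± 13.1 CPM in WT and 367 ± 9.58 CPM in *Hint1*-/- MASMCs (SD, n = 4) gave a 1.08-fold rise (log2 fold change 0.11, SE 0.0346, edgeR adjusted p = 0.0275). The call was lost without WT replicate 3 (adjusted p = 0.0753), WT replicate 4 (0.0842), *Hint1*-/- replicate 1 (0.0705), *Hint1*-/- replicate 2 (0.0569) or *Hint1*-/- replicate 4 (0.0815). *Lamc3* had 22 to 28 counts in WT and 20 to 24 in *Hint1*-/- MASMCs (log2 fold change −0.16, edgeR adjusted p = 0.646), and its genotypes overlapped.

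The balance of α chains differed with genotype. *Lama4* took 70.4%, 71.1%, 67.9% and 69.0% of the summed α level in *Hint1*-/- replicates 1 to 4, above the 64.2% to 66.4% of WT, and *Lama5* took 19.2%, 17.5%, 20.5% and 19.4%, below the 22.3% to 23.9% of WT. The share of *Lama2*, at 10.7% ± 0.422 (SD, n = 4) in *Hint1*-/- MASMCs, overlapped with its WT range of 10.7% to 11.6%. On the log2 scale, the ratio of *Lama5* to *Lama4* was −1.42, −1.48, −1.48 and −1.58 in WT and −1.88, −2.03, −1.73 and −1.83 in *Hint1*-/- MASMCs, with a difference in means of −0.38. The ratio of *Lama2* to *Lama4* went from −2.57 to −2.70 and its genotypes overlapped. Summed α chains went from 99.4 to 116 TPM without overlap, while β sums (203 and 217 TPM) and the sums of *Lamc1* and *Lamc3* (114 and 123 TPM) overlapped. The β to α ratio was 2.09, 2.06, 2.01 and 2.00 in WT and 1.88, 1.82, 1.97 and 1.87 in *Hint1*-/- MASMCs, so the excess of β over α chains was smaller in every knockout sample. The ratio of γ1 and γ3 to α chains was 1.14, 1.20, 1.13 and 1.11 in WT and 1.04, 1.06, 1.13 and 1.03 in *Hint1*-/- MASMCs, and its genotypes overlapped. *Lama4* itself went from 64.6 to 80.5 TPM and *Lama5* from 23.0 to 22.1 TPM. The α shares, α sums and ratios to α therefore carry the same rise of *Lama4* and are not separate results.

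**Figure D3:**
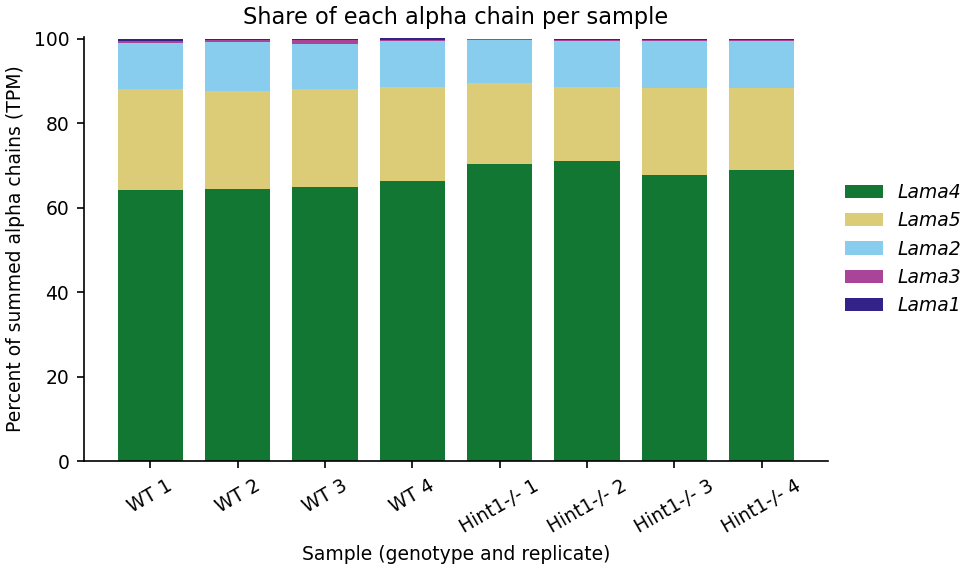
Share of each α chain gene in the summed α chain level per length, in percent, stacked for each of the 8 samples. *Lama4* holds 64.2% to 66.4% in WT and 67.9% to 71.1% in *Hint1*-/- samples, and the share of *Lama5* is smaller in every *Hint1*-/- sample.

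In terms of trimers, the allowance of laminin-411 and laminin-421 was 64.1, 65.2, 64.8 and 64.1 TPM in WT replicates and 83.1, 81.6, 71.0 and 86.3 TPM in *Hint1*-/- replicates, with no overlap. That of laminin-511 and laminin-521 overlapped (23.0 ± 1.05 and 22.1 ± 1.80 TPM), as did laminin-211 and laminin-221 (10.9 ± 0.585 and 12.4 ± 0.969 TPM; SD, n = 4 each).

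Laminin receptors were compared next. Of 14 receptor genes tested, 8 had an adjusted p under 0.05, with 4 higher and 4 lower, against 21.5% of all tested genes, and the list's median log2 fold change was −0.03. Past both thresholds were *Itga6*, *Itga7* and *Mcam*, all lower, where 2.83% of all tested genes passed both. The study had picked out *Itga6* and *Itga7* from this same RNA-Seq, so their passing here is not separate evidence. *Itga6*, whose α6 integrins bind laminin-511 strongly, had 203, 258, 223 and 201 counts in WT and 145, 138, 128 and 147 in *Hint1*-/- MASMCs (log2 fold change −0.65, SE 0.0904, edgeR adjusted p = 3.1e-05). *Itga7*, the laminin integrin chain of muscle, had 306 to 357 counts in WT and 146 to 184 in *Hint1*-/- MASMCs (log2 fold change −1.01, SE 0.0803, edgeR adjusted p = 3.2e-08). In the study's own q-PCR on such cells under PDGF-BB, *Itga6* was reduced in *Hint1*-/- cells, but *Itga7* was not affected. *Mcam*, the adhesion molecule CD146 that binds α4 laminins, had 410, 409, 432 and 366 counts in WT and 93, 82, 102 and 88 in *Hint1*-/- MASMCs (log2 fold change −2.13, SE 0.0812, edgeR adjusted p = 7.4e-13). In none of these 3 receptor genes did the genotypes overlap, which held for 9 of the 14 receptor genes and 23.0% of all tested genes. The direction of all 3 was opposite to that of *Lama4*.

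Integrin partners and other receptors followed. *Itgb1*, the β1 integrin that pairs with α3, α6 and α7, had 25723 to 27162 counts in WT and 24411 to 25042 in *Hint1*-/- MASMCs (log2 fold change −0.07, edgeR adjusted p = 0.105), and at 837 TPM in WT it stood far above *Itga6* at 6.17 TPM and *Itga7* at 9.54 TPM. *Itgb4*, which pairs with α6 in hemidesmosomes, had 83 to 120 and 67 to 91 counts (log2 fold change −0.36, edgeR adjusted p = 0.0561). *Itga3*, the other integrin of α5 and α3 laminins, fell by 0.33 on the log2 scale (edgeR adjusted p = 0.00700). *Dag1*, which encodes dystroglycan, the non-integrin receptor of α2 laminin, had 4489 to 4735 counts in WT and 4776 to 5370 in *Hint1*-/- MASMCs (log2 fold change 0.15, edgeR adjusted p = 0.00541). *Itga2*, *Bcam*, which encodes a receptor for α5 laminins, and *Sdc2* were also higher, by 0.19, 0.21 and 0.10 on the log2 scale.

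**Figure D4:**
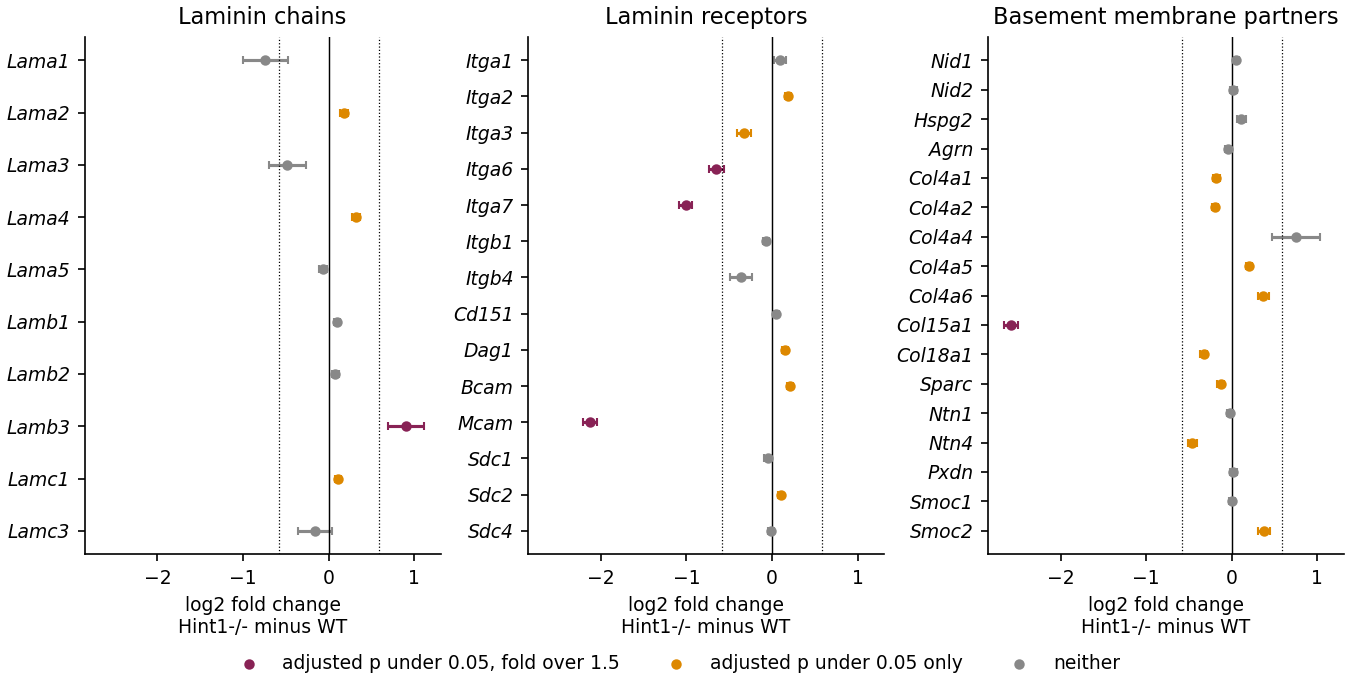
Log2 fold change (*Hint1*-/- minus WT) with its SE from edgeR for laminin chains, laminin receptors and basement membrane partners; colour gives the thresholds passed and dotted lines mark a fold change of 1.5. Laminin chains lie between −0.74 and 0.91, while *Mcam* at −2.13 and *Col15a1* at −2.58 lie farthest to the left.

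The proteins that anchor a laminin sheet showed no common direction. Of 19 basement membrane partners 17 were tested, and 9 had an adjusted p under 0.05, with 3 higher and 6 lower, where 21.5% of all tested genes passed, 11.2% as higher and 10.2% as lower. The list's median was −0.00 on the log2 scale. *Nid1* (nidogen), the link between γ1 laminins and collagen IV, had 12693 to 13471 counts in WT and 12713 to 14122 in *Hint1*-/- MASMCs (log2 fold change 0.05, edgeR adjusted p = 0.359), and *Hspg2* (perlecan) 20582 to 22825 and 21336 to 26368 counts (log2 fold change 0.11, edgeR adjusted p = 0.153). The chains of the main collagen IV molecule were lower. *Col4a1* had 13249, 12818, 12606 and 12123 counts in WT and 11537, 10924, 10464 and 11660 in *Hint1*-/- MASMCs (log2 fold change −0.18, edgeR adjusted p = 0.00260). *Col4a2* had 10379, 9782, 9661 and 9657 in WT and 8755, 8233, 8177 and 8878 in *Hint1*-/- MASMCs (log2 fold change −0.20, edgeR adjusted p = 0.000499). Neither overlapped between genotypes, and both moved against *Lama4* and *Lamc1*. The collagen IV chains *Col4a5* and *Col4a6* were instead higher, also without overlap. Their log2 fold changes were 0.20 (edgeR adjusted p = 0.000292) and 0.37 (edgeR adjusted p = 0.000276). Among the partners only *Col15a1*, the chain of a collagen beneath vascular and nerve basement membranes, passed both thresholds. It had 728, 635, 672 and 626 counts in WT and 128, 108, 96 and 109 in *Hint1*-/- MASMCs (log2 fold change −2.58, SE 0.0798, edgeR adjusted p = 3.6e-14).

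The enzymes that build the laminin-binding sugar on dystroglycan mostly did not pass the test. Of 18 genes 17 were tested, and 1 had an adjusted p under 0.05 in edgeR, as higher, against 21.5% of all tested genes, with a list median of 0.00. Among 11 tested genes of the dystrophin complex, which ties dystroglycan to actin, 2 were higher and 2 lower at that threshold, against 11.2% and 10.2% of all tested genes, and none passed the fold limit. Of 5 hemidesmosome genes, 1 passed as higher, *Dst* (log2 fold change 0.28, edgeR adjusted p = 0.00128), a share near the 21.5% of all tested genes.

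Markers of other cell types were read against the same background, in which 11.2% of all tested genes were higher and 10.2% lower at an adjusted p under 0.05 and 2.83% passed both thresholds. All 6 tested macrophage markers were lower at an adjusted p under 0.05 and none past the fold limit, with a median log2 fold change of −0.34. Of 9 tested Schwann cell markers, 7 were lower past both thresholds, with a median of −1.91, *Sox10* among them at 240 to 266 counts in WT and 41 to 48 in *Hint1*-/- MASMCs. Of 9 tested smooth muscle markers, 7 were lower and 1 higher at an adjusted p under 0.05, and *Myh11*, *Cnn1*, *Des* and *Actg2* were lower past both thresholds. The study's q-PCR on such cells under PDGF-BB instead found *Acta2*, *Cnn1* and *Tagln* higher in *Hint1*-/- cells. Its Western blots of such cells also showed more α-SMA and SM22 protein and less Vimentin. Here the log2 fold changes of *Acta2*, *Cnn1* and *Tagln* RNA were −0.51, −1.12 and −0.11, the last short of the adjusted p threshold. Of 8 fibroblast markers, 3 were higher and 2 lower, with *Dcn* and *Lum* higher and *Dpt* lower past both thresholds. Of 6 tested endothelial markers, 0 had an adjusted p under 0.05 in edgeR and 1 an unadjusted p under 0.05, and the summed level of all 8 was 6.77 to 9.66 CPM in WT and 6.98 to 9.09 CPM in *Hint1*-/- MASMCs. The part of these cell types in the laminin and receptor differences was not tested.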

How the data were processed

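RNA of 8 samples (4 WT, 4 *Hint1*-/-, grouped by title) was measured by oligo(dT)-enriched RNA-Seq with short reads. The authors deposited an estimated count per gene symbol and sample, without normalization. The study's methods name Hisat2 and mm10, and the submitters' processing notes name Bowtie2 and RSEM 1.3.1, so the aligner behind the counts is uncertain. Between 67.3% and 67.8% of values per sample were whole numbers, and estimated counts divide reads that several transcripts or genes share. The values were rounded. R 4.3.3 with edgeR 4.0.16 was used: filterByExpr, TMM (factors 0.993 to 1.01), glmQLFit, and glmQLFTest on a model of genotype alone, and Benjamini-Hochberg adjustment over 13535 genes. The SE is the size of the log2 fold change over the square root of F. A gene was changed at an adjusted p under 0.05 and a fold change over 1.5. The script was tested on simulated data.

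TPM used the exon union of protein-coding transcripts in the basic GENCODE M21 annotation, which gave 17733 of the 18533 symbols a length. Symbols without one held 1.59% to 1.74% of counts. Shares and trimer allowances have no test. Exact permutation tests over 70 assignments used log2 CPM (prior count 2) and were not adjusted. In the annotation, 3 of the laminin genes (*Lama2*, *Lama3* and *Lamc3*) share exonic bases with an antisense gene, and whether counting used strand is not given in the sources used here. Depth was 20778077 to 20888041 counts per sample, and the errors given include the spread between samples. On average over genes this spread exceeded counting noise, but it need not do so for each chain.

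The laminins and all lists were chosen with earlier results of these data known. A few genes of the planned lists, and the results that need them, are not reported here. The 10 laminin chains were named, with list genes past both thresholds, the laminin integrin chains, *Dag1*, *Nid1*, *Hspg2*, *Col4a1* and *Col4a2*, and the 3 genes most like a chain past both thresholds; any other name was picked with its values in view. Alternatives were DESeq2 1.42.0, its size factors, upper-quartile normalization, limma-voom (limma 3.58.1), no filter, at least 10 counts in every sample, a replicate block, each sample left out, coding length and unrounded counts. The comprehensive annotation and removal of each library's length trend (loess, span 0.3) were added after the data were seen.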

Additional observations from a re-analysis of the deposited data

Results flagged for a closer look

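Of 52 groups of 4 samples examined with Dixon's test, 2 had a sample far from the others, where chance gives about 1 in 20, or 2.60. In WT, the log2 CPM of *Col4a2* had a gap over range of 0.879, with 10379 counts in replicate 1 against 9657 to 9782 in the others. In *Hint1*-/- MASMCs, the log2 ratio of *Lamb2* to *Lamb1* had a gap over range of 0.843, with −0.02 in replicate 3 against −0.06 in each of the others. Among the *Hint1*-/- samples, this one also had the lowest *Lama4* count.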

How the results depend on the processing

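No log2 fold change of a laminin chain changed direction under any alternative run. Nor did the genotype differences in the log2 ratios of chains or in the *Lama4* share. For receptors, basement membrane partners and dystroglycan enzymes, only the number of genes passing was rerun. The log2 ratio of *Lamb2* to *Lamb1* within WT, −0.03, was 0.62 with the comprehensive annotation. The number of laminin chains past both thresholds was 1, and it was 2 with upper-quartile normalization, limma-voom or the length trend removed, and 1 to 2 with each sample left out in turn, where it was 2 without *Hint1*-/- replicate 4. The second chain was *Lama1* in each. The number with an adjusted p under 0.05 was 3 to 5 across all settings. Dystroglycan enzymes numbered 2 with the length trend removed. With the replicate number as a block, 4 laminin chains and 2 dystroglycan enzymes passed the adjusted p and 382 genes passed both thresholds, against 383 without it. Deviations of same-numbered samples correlated at −0.045 to 0.0814, and only the samples numbered 2 were each other's closest match. The numbers thus gave little sign of pairing, but low correlations cannot exclude it. *Lama1* could not be fitted with at least 10 counts in every sample. Log2 fold change rose with gene length across 13145 genes (Spearman's rho 0.179 across genes, which are not replicates), and this was 0.0448 after removal of the trend. Levels per length depended on the annotation: *Lama4* in WT was 64.6 TPM, 30.4 TPM by coding length and 43.9 TPM by the comprehensive annotation. Few counts limited the precision of *Lama1*, *Lama3*, *Lamb3* and *Lamc3*.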
